A study of Mus musculus with 686 samples.

Results

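The lung of mice that flew on the International Space Station and came back alive was measured by small RNA sequencing in 30 of the 686 libraries of the study, and in 30 of its 348 libraries of live animal return (LAR). The members were all lung libraries of the LAR extraction, 10 in each of 3 arms. The spaceflight arm (FL) was launched, lived aboard the station for several weeks and was dissected some days after splashdown. The habitat ground control (HGC) stayed on Earth in the same type of cage, at double housing density like FL, with temperature, humidity and carbon dioxide set to follow the flight record. The vivarium ground control (VGC) lived in ordinary vivarium cages. All mice were BALB/cAnNTac females, which makes this a test in 1 strain and 1 sex, and each arm held 5 mice of 3 months and 5 mice of 8 months. Per the study's methods the sea journey after landing had no counterpart in HGC, and large lungs were trimmed before RNA was extracted. Mice with the same number in different arms are different animals, named here by arm and number (FL mouse 14).

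MicroRNAs (miRNAs) are short RNAs that guide Argonaute proteins to messenger RNAs, mostly by pairing of the bases near their 5′ end, the seed. In lung, miR-126 is made by the endothelium that lines the capillary bed, and the miR-34b/c and miR-449 miRNAs share a seed and serve the formation of motile cilia on airway cells. The miR-200 family keeps epithelial character, miR-143 and miR-145 mark smooth muscle, and the miR-29 family represses collagens and other proteins of the extracellular matrix. Heart muscle has its own set, miR-208a, miR-208b and miR-499, each lying in an intron of a myosin heavy chain gene, and miR-206 is made by skeletal muscle. Those sets were followed here beside the lung miRNAs to see RNA of other tissues.

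The mature sequences of the miRNAs on which the results turn are given 5′ to 3′ with the seed, bases 2 to 8, in capitals. They come from RefSeq for GRCm38.p6, where 48 of the 60 listed miRNAs had an entry, and miR-34c-5p is named only. They show which of the counted miRNAs share a seed, GGCAGUG in miR-34b, miR-449a and miR-449c and UAAGACG in miR-208a and miR-208b, and miR-499 differs from the latter in its seed.
miR-126a-3p: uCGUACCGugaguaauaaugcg
miR-34b-5p: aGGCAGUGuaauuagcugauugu
miR-449a-5p: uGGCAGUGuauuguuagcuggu
miR-449c-5p: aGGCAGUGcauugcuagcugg
miR-208a-3p: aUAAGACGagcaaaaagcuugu
miR-208b-3p: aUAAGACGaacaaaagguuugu
miR-499-5p: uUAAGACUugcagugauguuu
miR-206-3p: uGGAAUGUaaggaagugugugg
miR-216a-5p: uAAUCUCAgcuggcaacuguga
miR-802-5p: uCAGUAACaaagauucauccuu

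The label "lung" was first checked against the miRNAs themselves. Each library was correlated with the median profile of 13 tissues over 600 miRNAs, with 269 LAR libraries as the reference, of which 22 were lung and 17 heart. Of the 30 libraries, 26 were closest to lung, with a Pearson's r to the lung profile of 0.822 to 0.963, and 4 were closest to another tissue. FL mouse 14 was closest to heart, with r = 0.963 to heart and 0.074 to lung. VGC mouse 16 was closest to subcutaneous adipose tissue (r = 0.859, lung 0.015). FL mouse 5 was closest to mesenteric adipose tissue (r = 0.387), with pancreas second (r = 0.336) and lung at 0.323. VGC mouse 3 was closest to thymus (r = 0.292), with mesenteric adipose tissue second (r = 0.227) and lung at -0.078. At such low values the closest tissue does not name what FL mouse 5 and VGC mouse 3 hold. All 4 came from 11 sequencing pools in which libraries of several tissues had carried the profile of another tissue, and so did 4 further lung libraries that were closest to lung (FL mice 13 and 16, VGC mice 2 and 14). No HGC library was in those pools. FL was therefore compared with each control over all 30 libraries, over the 26 closest to lung (8 FL, 10 HGC, 8 VGC) and over the 22 outside the pools (6 FL, 10 HGC, 6 VGC). Many single miRNAs are given over the 22 alone, and the covariates and the return comparison were not run over the 26. The 22 were themselves part of the lung reference.

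**Figure D1:**
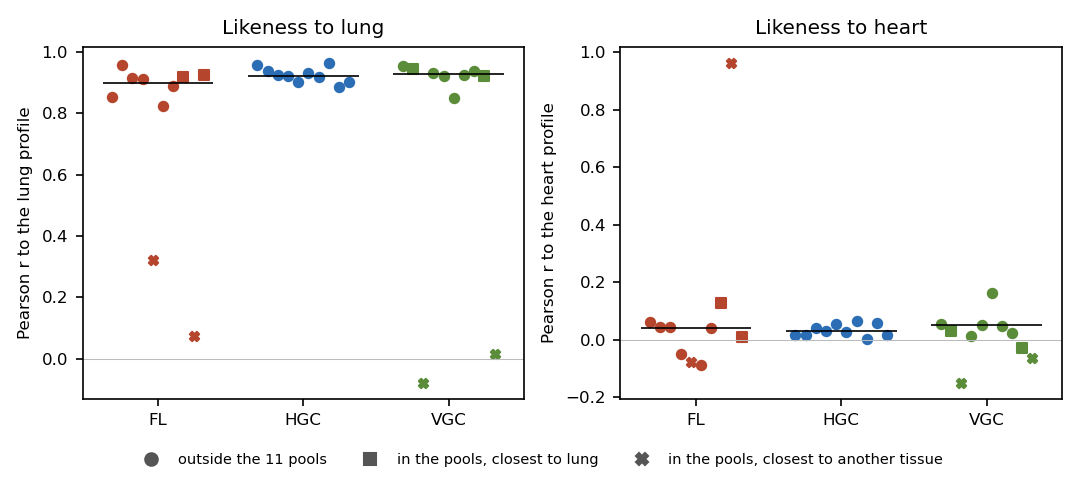
Pearson's r (y axis) of each lung library to the lung profile (left) and to the heart profile (right) by arm. Points are libraries, the symbol gives pool membership and likeness, and the line is the median of the libraries outside the 11 pools. Crosses mark the 4 libraries closest to another tissue: their r to lung was 0.323 or lower, and 1 of them, FL mouse 14, reached 0.963 to heart.

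The reference medians show what a lung library holds. On a scale of 1000000 miRNA counts per library (CPM), the median lung library outside the pools held 62604 CPM of miR-126a-3p, the highest of the 13 tissues, and 763 CPM of miR-34c-5p, also the highest. For miR-449a-5p lung was second, with 316 CPM against 369 in thymus. The heart miRNAs were lower in lung than in heart, with 23.9 CPM of miR-208a-3p against 1009 in heart and 1.97 CPM of miR-499-5p against 1548 in heart, while miR-208b-3p was 32.2 CPM in lung and 95.7 in heart. Lung ranked 3 of the 13 tissues for both miR-208 miRNAs. FL mouse 5, although closest to mesenteric adipose tissue, held several lung miRNAs within the range of the 26 libraries closest to lung. It had 498 TMM-scaled CPM of miR-34c-5p, 270.5 of miR-449a-5p and 8216 of miR-200c-3p. Its level of miR-34b-3p lay below their lowest value of 765.3.

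Counts per library, summed over 7 RNA classes, ranged from 30713256 to 172973116 (median 47189433), and miRNA counts from 4277866 to 16852692 (median 7413854). The share of miRNA was 18.1% ± 4.8 (SD) in FL, 17.4% ± 3.43 in HGC and 14.2% ± 6.72 in VGC over 10 libraries each. That of tRNA was 14.7% ± 9.17 in FL, 14.9% ± 6.06 in HGC and 28.2% ± 24.7 in VGC. None of the 14 comparisons of a class share passed an adjusted p of 0.05 in permutation tests, two-sided, with a lowest adjusted p of 0.432 over 30 libraries, 0.33 over 26 and 0.485 over 22. Unadjusted, snRNA over 26 libraries (16.6% in FL, 13.5% in HGC, 12.8% in VGC) gave exact permutation p = 0.049 and 0.0412, and rRNA over 22 (16.3% in FL, 20.1% in VGC) gave 0.0346. The libraries that stood out were VGC mouse 16 with 77.6% tRNA, VGC mouse 2 with 61.9%, VGC mouse 3 with 46.8% and FL mouse 5 with 39.7%, all in the 11 pools, while tRNA in HGC lay between 8.83% and 25.5%.

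**Figure D2:**
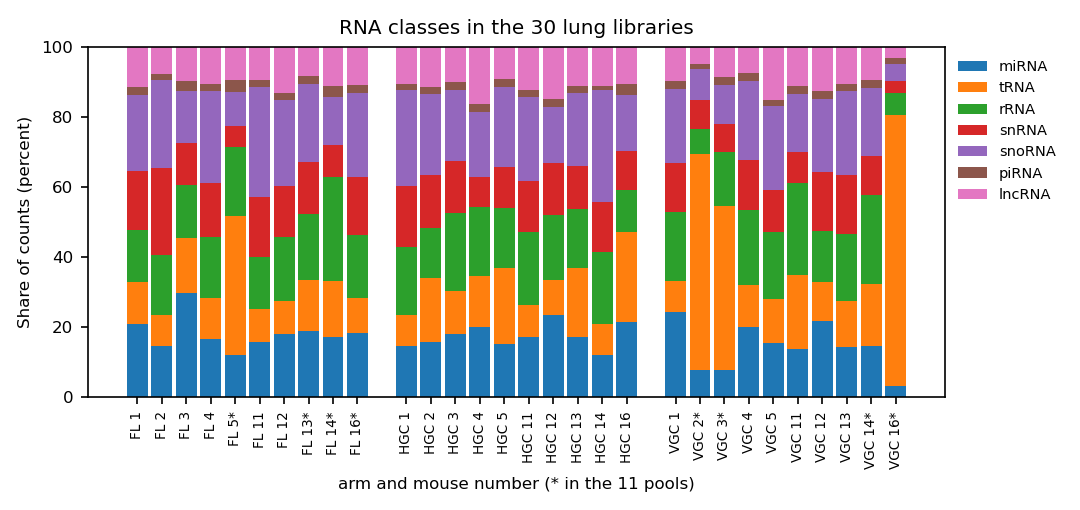
Share of the counts (percent, y axis) that fell on each of 7 RNA classes in each of the 30 lung libraries (x axis, arm and mouse number, an asterisk marks the 11 pools). The 4 bars with the most tRNA, VGC 16, VGC 2, VGC 3 and FL 5, hold between 39.7% and 77.6%.

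The comparison of FL with HGC asks what flight adds when the housing is matched. Over all 30 libraries, 16 of 589 miRNAs tested (2.72%) were higher in FL at an adjusted p under 0.05 (edgeR quasi-likelihood test) and 0 were lower, and 76 had an unadjusted p under 0.05. Of the 16, 7 are miRNAs of muscle, while the listed muscle miRNAs miR-208b-3p and miR-206-3p were not called. The 16 comprised the heart miRNAs miR-499-5p and miR-208a-3p, the heart and skeletal muscle miRNAs miR-1a-3p, miR-1a-1-5p, miR-133a-3p, miR-133a-5p and miR-133b-3p, and 5 products of the miR-378 family (378a-3p, 378a-5p, 378b, 378c and 378d), whose first member lies in a gene of mitochondrial metabolism. Also among them were miR-149-5p, miR-215-5p and the pancreatic miR-216a-5p, and miR-802-5p, known from liver and pancreas. Their log2 fold changes ran from 2.36 to 7.35 with a median of 2.95, against a median of 0.04 over all 589. The miRNAs of the 378 family are nearly identical in sequence and may share reads.

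In 14 of the 16 miRNAs the highest of all 30 libraries was FL mouse 14, the library closest to heart, and in the other 2, miR-216a-5p and miR-802-5p, it was FL mouse 5. Over the 26 libraries closest to lung, 15 of the 16 could be tested, with log2 fold changes of -0.14 to 2.03 (median 0.68), and 8 had an unadjusted p under 0.05. Over the 22 libraries outside the pools they were -0.05 to 2.20 (median 0.57), and 5 had an unadjusted p under 0.05. In both sets 0 miRNAs were called by edgeR in FL vs. HGC, of 601 and 610 tested, with 71 and 58 at an unadjusted p under 0.05. DESeq2 called 2 over the 30 libraries, miR-133b-3p and miR-1a-1-5p, and 0 over the 26 and the 22. Leaving out FL mouse 14 alone brought the 16 calls to 0, and leaving out FL mouse 5 alone brought them to 1. The count was also 0 without any 1 of HGC mice 1, 2, 4, 11, 12 and 16, 7 without HGC mouse 14, 25 without FL mouse 12 and 24 without VGC mouse 16.

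**Figure D3:**
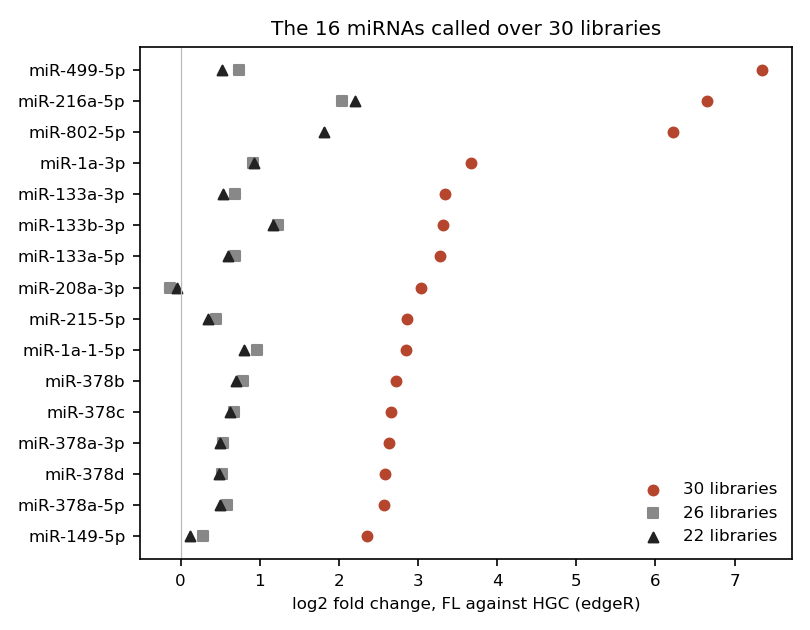
The log2 fold change (x axis) of FL against HGC for the 16 miRNAs called over 30 libraries, in the fits of 30, 26 and 22 libraries. All values of the 30 libraries lie at 2.36 or above, and without the 4 libraries closest to another tissue none exceeds 2.03 over 26 or 2.20 over 22, and miR-802-5p could not be tested over 26.

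From here on, levels of single miRNAs are TMM-scaled CPM within the miRNA class, a scale on which libraries can be set side by side. miR-499-5p, processed from the slow myosin gene Myh7b, was 3148 CPM in FL mouse 14, 82.0 in VGC mouse 11, 60.8 in VGC mouse 3 and 13.5 in FL mouse 5. In the remaining libraries it lay at 6.56 or lower, and the HGC arm ranged from 0.83 to 5.12 with a median of 1.64. The high library of FL was 1 of 10, and the other FL libraries overlapped HGC or lay a few CPM above it. A log2 fold change of 7.35 ± 1.59 (SE, adjusted p = 0.0287) over 30 libraries was 0.73 ± 0.70 over 26 (adjusted p = 0.647) and 0.52 ± 0.74 over 22 (adjusted p = 0.788).

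miR-208a-3p, from the intron of the cardiac myosin gene Myh6, was 1905 CPM in FL mouse 14 and 90.4 in VGC mouse 11. It ranged from 15.9 to 40.3 CPM (median 23.6) in the 6 FL libraries outside the pools and from 15.8 to 39.1 (median 25.7) in HGC. These ranges coincide. The log2 fold change against HGC was 3.04 over 30 libraries (adjusted p = 0.0435) and -0.05 ± 0.29 over 22 (adjusted p = 0.965). miR-208b-3p, its partner with the same seed, was 205 CPM in FL mouse 14 and 21.7 to 48.8 in the FL libraries outside the pools, where HGC had 21.9 to 49.7.

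VGC mouse 11 was outside the pools and its r to lung was 0.848, the second lowest of the 26. It had 3344 CPM of miR-1a-3p, where the other VGC libraries outside the pools had 204 to 965. Over the 22 libraries, of which it is 1, the log2 fold change of miR-499-5p in FL vs. VGC was -2.42 ± 0.83 and did not pass adjustment (p = 0.00719, adjusted p = 0.709, edgeR). Over 30 libraries, with FL mouse 14, the same fold change was 4.31 ± 1.37 (adjusted p = 0.242). The sign thus differed between the 2 sets of libraries, and the part of VGC mouse 11 in the negative value was not tested.

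The skeletal muscle miRNA miR-206-3p was spread over a wider set of libraries. It was 5533 CPM in FL mouse 1, 5166 in FL mouse 12, 3937 in FL mouse 5, 665 in FL mouse 13, 287 in FL mouse 16 and 101 in FL mouse 11, and between 3.79 and 18.1 in the other 4 FL libraries. In HGC it was 5118 CPM in mouse 5 and 1301 in mouse 14, and 4.22 to 34.7 in the other 8. In VGC it was 9735 in mouse 16 and 3889 in mouse 3, and 3.71 to 34.5 in the other 8. High and low libraries thus occurred in every arm, and FL mouse 14, the library with the heart profile, was not among the high ones. Outside the pools, 3 of 6 FL, 2 of 10 HGC and 0 of 6 VGC libraries lay above 100 CPM, a level chosen after the values were seen.

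For miR-206-3p the fold change of FL against VGC over 22 libraries was 6.67 ± 2.06 (log2, p = 0.00329, adjusted p = 0.709, edgeR), and DESeq2 called it (adjusted p = 0.0114), the only miRNA it called there. Over 26 libraries the adjusted p was 0.318 in edgeR and 4.07e-05 in DESeq2. Against HGC over 22 libraries the log2 fold change was 1.47 ± 1.40 (adjusted p = 0.677). miR-133b-3p, transcribed together with miR-206, ranged from 173 to 4026 CPM (median 584) in the 6 FL libraries, from 296 to 1969 (median 401) in HGC and from 334 to 1154 (median 448) in VGC, with its highest values of those 6 in the miR-206 libraries, mice 1 and 12. The long non-coding RNA Gm28653, within which both miRNAs lie on the same strand (GENCODE vM21), moved with them, at 33070 TMM-scaled CPM within its class in FL mouse 1, 13570 in FL mouse 12 and 15160 in HGC mouse 5, against 762 to 4280 in the other FL libraries outside the pools. Reads of the 2 miRNAs can be counted for this transcript, so its values are not a separate measurement. The likeness to diaphragm, the tissue with the most miR-206-3p, moved along, with r of 0.034 and -0.002 in FL mice 1 and 12 and -0.291 to -0.184 in the other 4 FL libraries outside the pools. The part of skeletal muscle RNA in these differences was not tested.

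**Figure D4:**
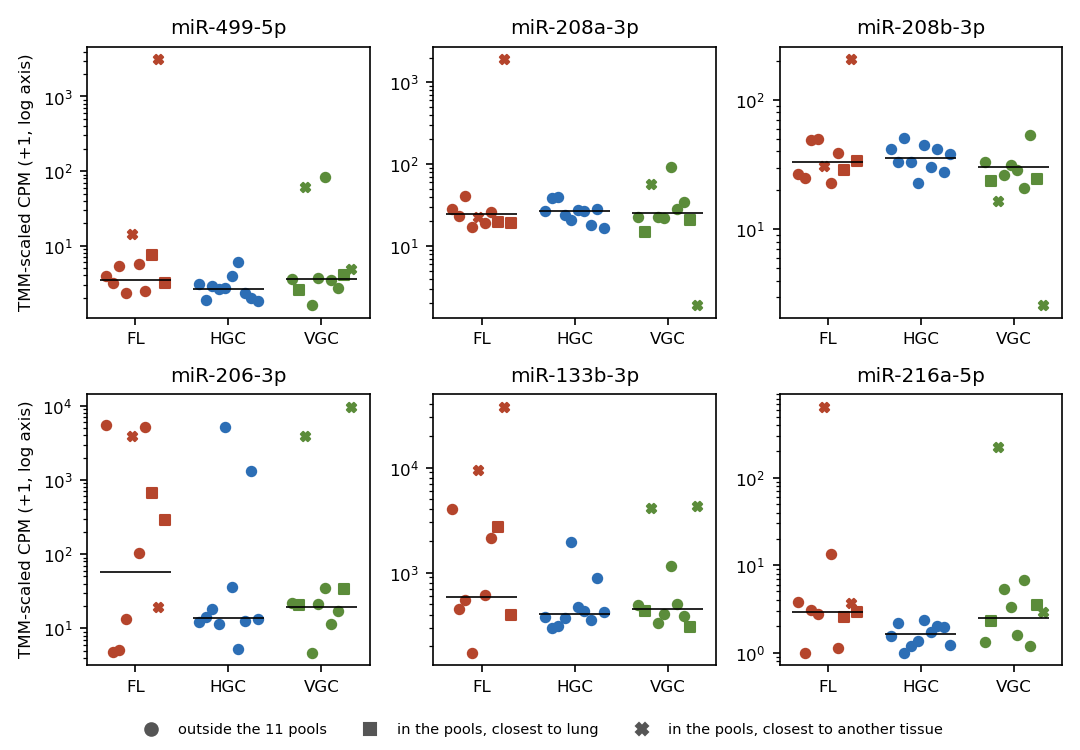
TMM-scaled CPM (log axis, 1 added) of 3 heart miRNAs (top) and of miR-206-3p, miR-133b-3p and miR-216a-5p (bottom) in each library by arm, with the line at the median of the libraries outside the 11 pools. The heart miRNAs are high in FL mouse 14 alone or, at most 90.4 CPM, in single VGC libraries, whereas miR-206-3p reaches 5118 CPM or more in single libraries of all 3 arms.

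The highest library was a different one for miR-216a-5p and miR-802-5p. miR-216a-5p was 651 CPM in FL mouse 5, 223 in VGC mouse 3 and 12.4 or lower in the other 28 libraries, and miR-802-5p was 478 and 171 CPM in the same pair and 8.3 or lower elsewhere. In the tissue medians miR-216a-5p was 13420 plain CPM in pancreas, 8497 in mesenteric adipose tissue and 0.88 in lung. Over 22 libraries miR-216a-5p was 0 to 12.4 CPM in FL and 0 to 1.37 in HGC (log2 fold change 2.20 ± 0.76, adjusted p = 0.344), a difference among libraries that mostly held a few CPM.

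Over the 22 libraries outside the pools, none of the miRNAs that characterise lung passed adjustment in either comparison. miR-126a-3p ranged from 45240 to 84600 CPM (median 62510) in the 6 FL libraries outside the pools, from 31630 to 90000 (median 60110) in the 10 HGC and from 34610 to 87790 (median 58600) in the 6 VGC libraries. The 3 ranges overlapped almost fully. The log2 fold change was 0.03 ± 0.23 against HGC and 0.07 ± 0.26 against VGC (adjusted p = 0.971 and 0.948). In VGC mouse 16, closest to subcutaneous adipose tissue, it was 7165 CPM, and in VGC mouse 3, closest to thymus, 9292. FL mouse 14 held 35890 and FL mouse 5, closest to mesenteric adipose tissue, held 49620, within the range of the lung libraries.

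miR-34c-5p, of the ciliated airway cells, ranged from 608 to 1812 CPM (median 795) in FL, from 277 to 1080 (median 698) in HGC and from 601 to 1002 (median 732) in VGC outside the pools. FL reached higher, through mice 3 and 4, but its lower values lay within both control arms. Its log2 fold change was 0.43 ± 0.25 against HGC and 0.34 ± 0.29 against VGC, and neither passed (adjusted p = 0.546 and 0.907). miR-449a-5p, with 168 to 620 CPM (median 256) in FL, 93.2 to 521 (median 384) in HGC and 175 to 496 (median 350) in VGC, differed by -0.12 ± 0.35 and -0.19 ± 0.39. The FL libraries outside the pools came from 2 mice of 3 months and 4 of 8 months, and with age in the model the values for miR-449a-5p were 0.08 ± 0.25 and -0.07 ± 0.28, so the sign against HGC turned. Its mean was 475.6 CPM in FL and 461.4 in HGC at 3 months, and 217.7 and 198.8 at 8 months.

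**Figure D5:**
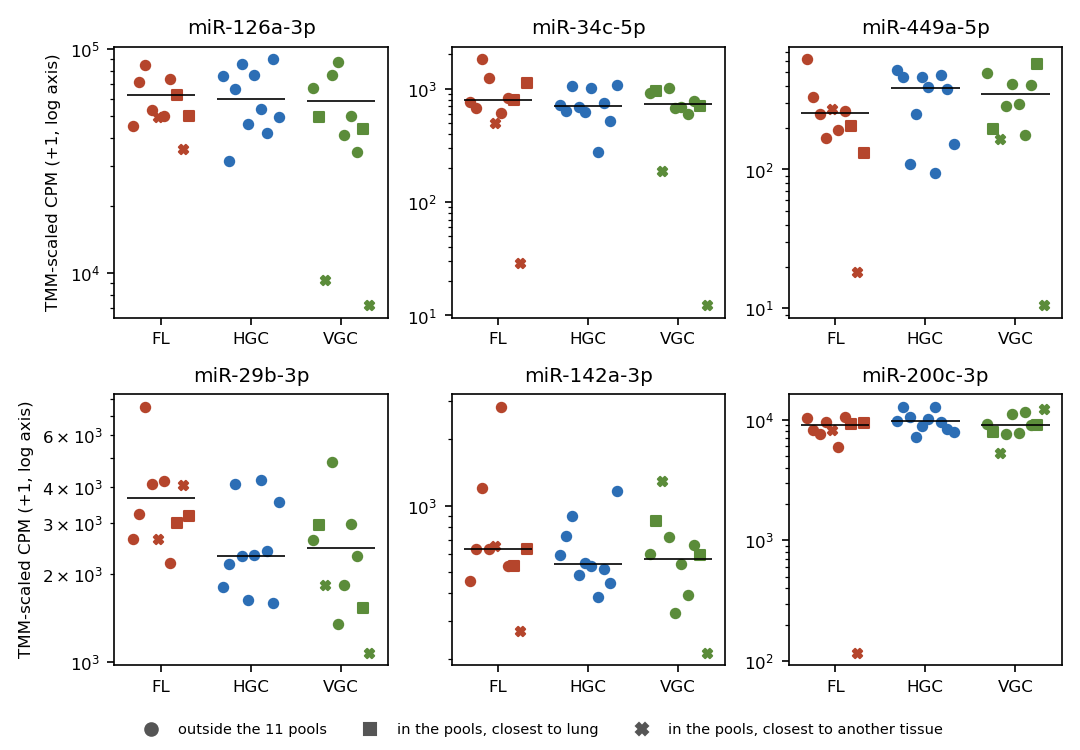
TMM-scaled CPM (log axis, 1 added) of 6 miRNAs of endothelium, ciliated cells, matrix control, leukocytes and epithelium in each library by arm, with the line at the median of the libraries outside the 11 pools. The arms overlap in all 6, and FL mouse 14 and VGC mouse 16 (crosses) lie far below the rest for miR-34c-5p and miR-449a-5p.

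miR-34b-3p, the other arm of the hairpin of miR-34b-5p, ranged from 765 to 1186 CPM (median 1029) in FL, from 861 to 2273 (median 1042) in HGC and from 1273 to 1897 (median 1398) in VGC. All 6 FL libraries outside the pools lay below all 6 VGC libraries, but the libraries of the pools that were closest to lung overlapped, with 1678 in FL mouse 13 and 1029 in VGC mouse 2. Its log2 fold change was -0.33 ± 0.20 against HGC (adjusted p = 0.546) and -0.57 ± 0.23 against VGC (p = 0.0175, adjusted p = 0.709), and over 26 libraries -0.37 ± 0.20 against VGC (adjusted p = 0.734). Of the 7 listed miRNAs of ciliated cells 6 could be tested, with 2 positive in each comparison, medians of -0.22 and -0.18, and 1 and 2 at an unadjusted p under 0.05.

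The third member of the miR-449 seed group, miR-449c-5p, had the most negative fold change of that list, at a low level in lung (median 6.83 plain CPM) and a higher one in thymus (11.0). It was 7.12, 5.94, 4.8, 3.29, 2.2 and 1.72 CPM in FL mice 1, 2, 3, 4, 11 and 12, against 3.21 to 16.8 (median 9.2) in HGC and 3.77 to 22.6 (median 8.14) in VGC. In HGC 6 of 10 and in VGC 3 of 6 libraries lay above every FL library, and the others overlapped FL. FL differed by a log2 fold change of -1.24 ± 0.45 against HGC (p = 0.011, adjusted p = 0.344) and -1.46 ± 0.49 against VGC (p = 0.00609, adjusted p = 0.709). Both comparisons use the same FL libraries. The control arms had equal numbers of both ages, unlike FL, and with age in the model the values were -0.92 ± 0.32 (adjusted p = 0.373) and -1.20 ± 0.35 (adjusted p = 0.608). Over 30 libraries the adjusted p was 0.111 and 0.334.

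The 4 miRNAs listed for extracellular matrix and fibrosis, miR-29a, miR-29b and miR-29c (3p) and miR-21a-5p, which is raised in fibrotic lung, all had positive log2 fold changes in FL and none was called. Against HGC their median was 0.56 (0.30 to 0.61) over 22 libraries, with 2 at an unadjusted p under 0.05, beside 0.05 over all 610 miRNAs tested. Against VGC it was 0.47 (0.12 to 0.57), with 0 below that limit, beside -0.02. miR-29b-3p ranged from 2175 to 7534 CPM (median 3653) in FL, from 1593 to 4217 (median 2314) in HGC and from 1347 to 4857 (median 2460) in VGC, with FL mouse 3 above all other libraries. Its log2 fold change was 0.61 ± 0.28 against HGC (adjusted p = 0.499) and 0.57 ± 0.32 against VGC (adjusted p = 0.84). miR-29c-3p differed by 0.56 ± 0.23 (adjusted p = 0.437) and 0.40 ± 0.26 (adjusted p = 0.902).

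Among the leukocyte miRNAs, miR-142a-3p, made in all blood cell lineages, ranged from 455 to 2819 CPM (median 635) in FL, from 382 to 1168 (median 540) in HGC and from 323 to 718 (median 573) in VGC. FL mouse 11 alone accounted for the top value, and the same library held 24420 CPM of miR-150-5p, a miRNA of mature lymphocytes that was 2013 to 9582 CPM in the other 21. Its profile was closest to lung (r = 0.822, the lowest of the 26) with spleen as the second tissue (r = 0.432). miR-142a-3p had a log2 fold change of 0.74 ± 0.32 against HGC and 0.95 ± 0.37 against VGC (adjusted p = 0.488 and 0.709). In bulk tissue, fewer cells of a type and less RNA in each cell cannot be told apart.

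The lists as a whole gave no call outside the pools. Of 60 listed miRNAs in 17 lists, 58 could be tested, and over 22 libraries 0 were called in FL vs. HGC (lowest adjusted p 0.344) and 0 in FL vs. VGC (lowest 0.709), where 28 of all 610 miRNAs had an unadjusted p under 0.05. The 8 epithelial miRNAs of the miR-200 and miR-183 groups had median log2 fold changes of 0.11 and 0.09, and miR-200c-3p ranged from 5881 to 10440 CPM in FL, 7219 to 12830 in HGC and 7641 to 11470 in VGC. The 5 of smooth muscle and fibroblasts had medians of 0.29 and 0.08, and the 3 erythroid ones 0.08 and -0.07. The 4 leukocyte miRNAs had medians of 0.22 and 0.53, with all 4 positive in both comparisons and 1 at an unadjusted p under 0.05 in each. The 3 of heart and skeletal muscle had medians of 0.93 and 0.26, with all 3 positive and 1 below that limit in each. Among the p53, hypoxia and inflammation miRNAs, the hypoxia-induced miR-210-3p had medians of 67.3 CPM in FL, 62.0 in HGC and 66.2 in VGC. The 6 of the MIR-17 family, which drives proliferation, had medians of 0.12 and 0.39, and all 6 were positive against VGC.

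The comparison of FL with VGC adds the change of housing to that of flight, and it shares the FL libraries with the first. Over 30 libraries edgeR called 0 of 589 miRNAs (57 at an unadjusted p under 0.05, DESeq2 0). In the snoRNA class, small nucleolar RNAs that guide chemical modification of other RNAs, 153 of 574 (26.7%, and 3.63% of all features of the 7 classes) were lower in FL and 0 were higher. All 153 lie on chromosome 7 between Ube3a and Snrpn (GENCODE vM21), an imprinted region whose snoRNA clusters are known for their expression in neurons, and 178 of the 574 tested lie there. Of the 153, 17 carry the name Snord116 and 136 a Gm number. These are near-identical copies, so reads cannot be assigned to single copies and the 153 are not independent.

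In all 153 the highest library was VGC mouse 3, by 10.3 to 37.2 times the second library (median 22.8). Gm22252 was 1516 TMM-scaled CPM within its class there and 40.7 or lower in the other 29 libraries. Gm25156 was 70.4 CPM there and 2.19 or lower elsewhere, and Gm24983 was 135 CPM there and 4.54 or lower elsewhere. The same library held 7339 CPM of the neuronal miR-124-3p, which was 296 or lower in the other 29. HGC vs. VGC, which also contains this library, gave 181 snoRNAs over 30 libraries (31.5%), among 182 features of the 6 classes other than miRNA (5.02%) and 186 of all 7 classes (4.41%). In FL vs. VGC the log2 fold changes of the 153 over 30 libraries ran from -3.50 to -1.79 (median -2.79), with a smallest adjusted p of 0.0386 that most of them shared, among them Gm25156, Gm24983, Gm22252, Gm24862 and Gm23310. Over 26 libraries they ran from -0.34 to 0.20 (median -0.02) and over 22 from -0.57 to 0.36 (median 0.12), with 0 at an unadjusted p under 0.05 in either set. Without VGC mouse 3 the count was 0, and it was also 0 without 1 of 14 other libraries, namely FL mice 1, 2, 3, 4, 11, 12, 13 and 16, HGC mice 1, 2, 11 and 13, and VGC mice 5 and 11. It was 9 without VGC mouse 1, 59 without FL mouse 5 and 224 without VGC mouse 4. DESeq2 called 0 snoRNAs over 30 libraries, with 9 at an unadjusted p under 0.05. It called 102 of 385 tRNAs, 94 of them lower in FL, which were all its calls among 4218 features of the 7 classes. edgeR called 0 of the tRNAs there, with 95 at an unadjusted p under 0.05. Over 26 libraries, which keep VGC mouse 2 with 61.9% tRNA, DESeq2 called 54 of 385 tRNAs and 55 of all 4236 features. Over 22 it called 0 tRNAs, where 1 had an unadjusted p under 0.05.

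In the other classes little passed. FL vs. HGC over 30 libraries gave 1 of 388 piRNAs (0.258%, and 0.0276% of the 6 classes other than miRNA) and 0 tRNAs, rRNAs, snRNAs, snoRNAs and lncRNAs, where 6, 16, 69, 29 and 82 had an unadjusted p under 0.05 and DESeq2 called 4 lncRNAs (2 Gm28653 transcripts, AI197445 and Gm5820). piRNAs are small RNAs of the germ line, and entries counted in somatic tissue can be fragments of other RNAs. The 1 call, oocyte_piRNA1459, was 3749 TMM-scaled CPM within its class in HGC mouse 16 and 10.2 to 58.2 in the other 29 libraries, with a log2 fold change of -4.11 ± 0.91 (adjusted p = 0.0238, edgeR). DESeq2 did not call it and gave 0.38, the opposite sign. Without HGC mouse 16 the count of features called outside the miRNAs was 0, as it was without any 1 of FL mice 1, 2, 3, 11, 12 and 13, and it was 3 without FL mouse 4, FL mouse 16 or HGC mouse 3 and 5 without HGC mouse 5.

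Over the 26 libraries closest to lung, 3 of 375 piRNAs (0.8%, which is 0.0825% of the other 6 classes and 0.0708% of all 7) were called in FL vs. HGC, oocyte_piRNA1459 again (-4.42 ± 1.07), piR-300 (1.30 ± 0.31) and oocyte_piRNA3673 (0.80 ± 0.19), each with an adjusted p of 0.0337. DESeq2 over the same libraries called piR-300, oocyte_piRNA3673 and piR-4034, and gave oocyte_piRNA1459 a log2 fold change of -0.09 (adjusted p = 0.942). piR-300 was 768, 239, 643, 207, 1142 and 280 CPM in the FL libraries outside the pools (mice 1, 2, 3, 4, 11 and 12), 119 to 314 (median 188) in HGC and 93.1 to 488 (median 187) in VGC. Of these, 3 FL libraries stood above all HGC libraries and the other 3 lay within their range. Over 22 libraries its log2 fold change was 1.42 ± 0.35 against HGC (adjusted p = 0.135 in edgeR, 0.0129 in DESeq2) and 1.31 ± 0.40 against VGC (adjusted p = 0.254 in edgeR). oocyte_piRNA3673 was 3577 to 8260 CPM (median 4295) in FL and 1911 to 3703 (median 2891) in HGC, and 1 FL library lay within the HGC range. Its log2 fold change was 0.74 ± 0.22 (adjusted p = 0.201). DESeq2 also called oocyte_piRNA458 in both comparisons and piR-2808 in FL vs. VGC over 22 libraries. In edgeR 0 features of any class were called over the 22 libraries in either comparison, of 4325 tested, with 301 and 108 at an unadjusted p under 0.05. Plates were spread unevenly, with 5 of 10 HGC libraries on a plate that held no FL library, and with plate in the model the counts at an unadjusted p under 0.05 were 85 and 118, again with 0 called.

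Mir155hg, the host transcript of miR-155, an inflammatory miRNA of activated leukocytes, had the smallest unadjusted p of the lncRNAs in FL vs. VGC over 30 libraries and is described for that reason, chosen after its values were seen. Its first transcript was 335 to 1264 TMM-scaled CPM (median 498) in the 6 FL libraries, 245 to 487 (median 364) in HGC and 211 to 429 (median 308) in VGC, again highest in FL mouse 11. The log2 fold change was 0.73 ± 0.24 against HGC (p = 0.00529, adjusted p = 0.609) and 0.92 ± 0.27 against VGC (p = 0.00266, adjusted p = 0.984). Mature miR-155-5p was 125 to 790 CPM (median 220) in FL, 154 to 470 (median 239) in HGC and 150 to 238 (median 184) in VGC, and differed by 0.29 ± 0.30 and 0.69 ± 0.34. Mir155 lies inside Mir155hg on the same strand, so reads of the miRNA can be counted for the host transcript and the 2 are not separate measurements. Over 22 libraries the smallest unadjusted p of the lncRNAs in FL vs. VGC was that of 3930402G23Rik, lower in FL. Its log2 fold change was -1.165 ± 0.23 (p = 5.6e-05, adjusted p = 0.0854, edgeR), and -0.62 against HGC (adjusted p = 0.609).

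A rule without a p-value was applied as well. It keeps miRNAs whose log2 ratio of geometric medians (counts scaled to the mapped total, 1 added) is beyond 1 with a Cohen's d beyond 0.5. Over 30 libraries it kept 6 of 1066 detected miRNAs in FL vs. HGC (0.563%), all higher (miR-133a-5p, miR-133a-3p, miR-1a-3p, miR-490-3p, miR-133b-3p and miR-206-3p; scaled to the miRNA total, 8 with 6 higher and 2 lower), and 8 in FL vs. VGC (0.75%), 7 higher and 1 lower (scaled to the miRNA total, 4 with 2 in each direction). Outside the pools 2 of 995 (0.201%) remained in each, miR-133b-3p (1.10) and miR-490-3p (1.20) against HGC and miR-206-3p (1.17) and miR-132-3p (-3.76) against VGC. miR-490-3p, of smooth and cardiac muscle, was 5.42 to 56.6 CPM (median 28.6) in FL and 2.79 to 29.0 (median 11.9) in HGC. In every arm miR-132-3p lay either at 40.6 CPM or above or at 12.5 CPM or below. In VGC outside the pools it was 90.1, 97.2, 177 and 190 CPM in mice 1, 4, 5 and 11 and 2.79 and 3.62 in mice 12 and 13, and in FL it was 53.6 and 196 in mice 3 and 4 and 1.68 to 5.54 in the rest. Its partner from the same primary transcript, miR-212-3p, had no such split, with 8.38 to 37.1 CPM in all libraries except VGC mouse 3 at 97.2. edgeR gave miR-132-3p a log2 fold change of -1.10 ± 1.28 against VGC (adjusted p = 0.907).

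Whether the flight change depended on age was tested as an interaction over the 7 classes. Over 30 libraries 1 of 4540 features (0.022%) was called, oocyte_piRNA1459 (-6.01 ± 1.36, adjusted p = 0.0357), whose high library was an HGC mouse of 8 months. Over 26 and 22 libraries edgeR called 0, with 149 and 114 at an unadjusted p under 0.05, and DESeq2 was not run for this contrast. The change after live return was also set against that in 28 lung libraries of mice terminated on orbit and their controls. Per the study's methods those mice flew for fewer days. Their carcasses were frozen whole, those of FL aboard the station, and thawed before dissection. Return, time in flight and preservation cannot be told apart here. Over the 30 and 28 libraries together 134 of 4586 features (2.92%) differed in the flight effect between the 2 groups, 76 of them miRNAs. For miR-499-5p the log2 difference was 14.05 ± 2.31 (adjusted p = 3.5e-05). In the same fit the log2 fold change of FL vs. HGC after termination on orbit was -6.57 ± 1.61. Outside the pools, where 8 FL, 5 HGC and 4 VGC libraries of the terminated groups remained, edgeR called 0 of 4789. There 454 had an unadjusted p under 0.05, and miR-499-5p differed by 0.08 ± 1.01. DESeq2 was not run for this contrast either.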

How the data were processed

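Small RNA was sequenced from 30 lungs after live return. The authors deposited count tables per RNA class, aligned to GRCm39 per the submitters' processing notes: estimated counts for miRNAs, which were rounded for the count tests, and whole read counts for the 6 other classes (lncRNA, piRNA, snoRNA, snRNA, rRNA, tRNA). The libraries were amplified by PCR without molecular identifiers. Tables of 2 further classes were not used, and 0 columns belonged to samples outside the series. Columns of other tissues served only for the tissue profiles, and those of 28 lungs from mice terminated on orbit for the return comparison.

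Each class was scaled by TMM and tested with edgeR 4.0.16 (quasi-likelihood, R 4.3.3) on features kept by filterByExpr, with Benjamini-Hochberg adjustment over the class and a threshold of 0.05. DESeq2 1.42.0 was the alternative. Class shares were compared by permutation (scipy 1.17.1, two-sided, exact below 10 libraries in an arm, otherwise 100000 resamples), with Python 3.11.15, pandas 2.3.3 and numpy 2.4.6. The rule on geometric medians required 5 reads in 10% of an arm. The tests recovered 68% of miRNAs simulated with a 2-fold change and 96% with a 4-fold change in FL vs. HGC over 30 libraries (589 features). In each simulation 100 miRNAs changed 2-fold and 100 changed 4-fold, so recovery where few miRNAs change was not tested.

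The alternatives were scaling, filters, covariates for age, plate and heart miRNAs, and leaving out libraries. Libraries of equal mouse number were not paired: their deviations correlated at -0.341 to 0.451 (median -0.0544), with 6 of 30 pairs over 0.1. No 2 libraries agreed within sampling noise (chi-square per degree of freedom 199.7 or more). The p-values measure the spread between these mice. Depth was 30713256 to 172973116 counts per library. The 5 called features with the smallest adjusted p per class and comparison (ties taken by the unadjusted p, and for Gm23310 and Gm24862 tied there too), all listed miRNAs, and counts of 5 or fewer were named. The members, lists and 11 pools were chosen with earlier results of these data known, and the set of 26 libraries was added after the data were seen. The GENCODE vM21 annotation, of another build, served for gene neighbours only.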

Additional observations from a re-analysis of the deposited data

Results flagged for a closer look

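Single libraries lay far from the rest of their arm in 20 of the 66 groups of libraries tested. Chance marks about 1 in 20 groups, but many of these features had been named because 1 library carried them, and the same few libraries recur, so the count is no test. FL mouse 14 stood apart by its 29.72% rRNA, by 28.04 CPM of miR-34c-5p and 17.16 of miR-449a-5p at the low end, and by 1905 CPM of miR-208a-3p, 204.8 of miR-208b-3p and 3148 of miR-499-5p at the high end. VGC mouse 16 was low for 4 miRNAs, with 11.28 CPM of miR-34c-5p, 9.519 of miR-449a-5p, 0.8814 of miR-208a-3p and 1.587 of miR-208b-3p.

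FL mouse 5 stood apart by its 39.73% tRNA, 650.9 CPM of miR-216a-5p and 477.5 of miR-802-5p. VGC mouse 3 did so by 222.6 and 170.5 CPM of the same miRNAs, by 2157 CPM of piR-300 and by a low 2932 CPM of miR-150-5p. Among libraries outside the pools, FL mouse 11 was high for miR-150-5p (24420 CPM), HGC mouse 16 for oocyte_piRNA1459 (3749 CPM) and FL mouse 3 for the miRNA share of its counts (29.79%).

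The flight effect differed between ages for 1 feature, oocyte_piRNA1459, and between live return and termination on orbit for 134 features, both over all libraries, and for 0 features outside the pools.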

How the results depend on the processing

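The 16 miRNA calls in FL vs. HGC over 30 libraries became 2 with DESeq2 and 0 with an age, plate or heart miRNA covariate, without the 11 pools, and without the 4 libraries closest to another tissue. The 1 call in the other 6 classes became 4 with DESeq2, 14 with no filter, 3 without the 4 libraries, and 0 with each covariate or without the pools. The 153 calls in FL vs. VGC became 242 with RLE normalization and 0 with no filter, with each covariate, without the pools and without the 4 libraries. Over the 22 libraries, the 0 calls in the other 6 classes became 2 with DESeq2 in both comparisons and 8 and 7 with no filter, and the 0 miRNA calls in FL vs. VGC became 1 with DESeq2. The rule on geometric medians gave 2 and 2 miRNAs without the pools, 3 and 3 without the 4 libraries, 8 and 4 scaled to the miRNA total, and 4 and 6 with a pseudocount of 10, against 6 and 8. The age by flight count went from 1 to 0 in both smaller sets, and the return by flight count from 134 to 0 without the pools.

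Leaving out 1 library at a time gave 0 to 25 miRNAs and 0 to 5 other features in FL vs. HGC over 30 libraries, 0 miRNAs and 0 to 224 other features in FL vs. VGC, 0 to 2 and 0 to 1 other features over 22 libraries, and 4 to 10 and 5 to 11 miRNAs by the rule on geometric medians. A replicate block on the mouse number, which did not pair the libraries (1 of 30 lay closest to its own number), gave 0 where 16, 1 and 153 were called.

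The sign changed for miR-208a-3p in FL vs. HGC (log2 fold change -0.167 with DESeq2, -0.112 with the heart covariate, which contains this miRNA, -0.045 without the pools, -0.137 without the 4 libraries). In FL vs. VGC with DESeq2 it changed for Gm24983 (0.054), Gm22252 (0.7), Gm24862 and Gm23310 (0.776 each), and without the pools for the last 3 (0.065, 0.115 and 0.115). For oocyte_piRNA1459 in FL vs. HGC it changed with DESeq2 (0.38). The smaller sets hold fewer libraries, and the cause of the other changes was not tested. Outside the pools the FL arm held 6 libraries, and simulated 2-fold changes of miRNAs were recovered in 70% in FL vs. HGC and 61% in FL vs. VGC (610 features). There 100 miRNAs changed 2-fold and 100 changed 4-fold, so these shares do not give the recovery of a few changed miRNAs.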

Other observations

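The ages were compared after the data were seen. Over the 22 libraries outside the pools and all arms, 27 of 4861 features (0.555%) were lower at 8 than at 3 months at an adjusted p under 0.05 (edgeR). They were miR-449a-5p and miR-449c-5p, miRNAs of ciliated cells with a shared seed that were also present, and higher, in thymus, and 25 transcripts of Rian, a maternally expressed long RNA of the imprinted Dlk1-Dio3 region that hosts snoRNAs. miR-449a-5p ranged from 331.5 to 619.8 TMM-scaled CPM (median 463.2) in 10 libraries of 3 months and from 93.22 to 388.6 (median 220.9) in 12 of 8 months, a log2 fold change of -1.09 ± 0.23 (adjusted p = 0.0238). miR-449c-5p ranged from 5.35 to 22.6 (median 14.9) and from 1.72 to 10.7 (median 3.97), a log2 fold change of -1.35 ± 0.27 (adjusted p = 0.0238). The ages overlapped in both at their ends.

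miR-34c-5p, of the same cells and family, differed by 0.27 (adjusted p = 0.89). Of 54 Rian transcripts tested, 52 had lower values at 8 months and the 25 called had log2 fold changes of -1.19 to -0.79, but these isoforms share reads and are not independent. With the lower filter of the study's methods (5 reads in 10% of a group), edgeR called 4 of 6871 features over the 22 libraries, 2 miRNAs and 2 in the other 6 classes. Over 26 libraries 27 features were called, 26 of Rian, lower at 8 months, and Gm29502, higher at 8 months (log2 fold change 0.85), and the adjusted p was 0.0783 for miR-449a-5p and 0.0766 for miR-449c-5p. Over 30 libraries 29 were called, 24 of Rian, lower at 8 months, and 5 higher at 8 months (AI463229, Gm12480, Gm29502, Gm48707 and Gm49655, log2 fold changes 0.78 to 2.03), and the miRNAs had adjusted p of 0.345 and 0.15.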
